A study of Mus musculus with 67 samples.

Results

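*Osr1* and *Osr2*, the mouse odd-skipped related genes, were followed in RNA-seq of forelimb buds with and without *Gli3*. They were picked by gene name from tables of 46983 gene IDs, and both names (2 of 2) were found, each on a single gene ID. *Osr1* (ENSMUSG00000048387.7) is listed on the plus strand of chromosome 12 from 9574442 to 9581499, and *Osr2* (ENSMUSG00000022330.4) on the plus strand of chromosome 15 from 35296098 to 35303304, in coordinates of mm10. Neither span overlaps another listed gene, so that reads of an overlapping partner do not enter their values.

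Odd-skipped related genes encode zinc finger transcription factors named after the *Drosophila* pair-rule gene *odd-skipped*. *Osr1* marks intermediate and lateral plate mesoderm and is needed for the kidney and for septation of the heart, whereas *Osr2* is best known for growth of the secondary palate and for keeping the teeth in a single row. In the limb both are expressed in connective tissue and at forming joints, where they act in part redundantly.

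Pools of Swiss Webster forelimb buds were sequenced in 14 libraries of 4 groups. Whole buds of embryos with 21 to 23 somites (E9.25), before the limb responds to Hedgehog (HH) signaling, gave 3 WT and 4 *Gli3*-/- libraries, and anterior buds of embryos with 32 to 35 somites (E10.5) gave 4 WT and 3 *Gli3*-/- libraries. The mutants carried the *Gli3* Xt-J allele, a loss-of-function deletion present in every cell of the embryo, and by the sample labels a library pooled 4 pairs of whole buds at the earlier stage or 2 pairs of anterior buds at the later one. Stage and dissection go together, so that E10.5 against E9.25 is also anterior against whole buds, and in bulk RNA fewer expressing cells and less RNA per cell cannot be told apart. Depth was estimated at 38.1 to 56.8 M reads per library, and levels are given as TPM, a value scaled for gene length and to the same total in each library, in which 1 TPM equals 20.7 to 29.3 reads per kilobase.

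*Gli3* RNA was checked first, since it tests the labels. It was 44.2, 15.8 and 44.6 TPM in the E9.25 WT libraries and 14.3 to 20.8 TPM in the E9.25 *Gli3*-/- libraries, so that WT replicate 2 lay within the mutant range. At E10.5 it was 73.4 to 89.7 TPM in WT and 38.7 to 40.9 TPM in *Gli3*-/- buds, without overlap. The allele deletes a part of the gene, and the tables do not give the deleted part on its own. The defining genes of limb mesenchyme were present in all libraries, with a summed level of 804 to 1333 TPM over 10 genes led by *Twist1*, *Msx1* and *Prrx1*, and none of 5 neural tube genes reached 1 TPM in any library. Blood genes summed to 6912 to 23430 TPM in 13 libraries and to 33323 TPM in E10.5 *Gli3*-/- replicate 3, the highest of the series.

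*Osr1* was low in E9.25 WT buds and higher in *Gli3*-/- buds of the same stage. Its levels in WT replicates 1 to 3 were 1.72, 1.35 and 1.16 TPM, which rest on 30.4 to 50.3 reads per kilobase. In *Gli3*-/- replicates 1 to 4 they were 7.22, 11.2, 10.4962 and 8.44 TPM. The lowest mutant library was 4.19-fold above the highest WT library, and the mean TPM was 6.62-fold higher. On the log2(TPM + 1) scale, on which all tests were run and which understates the change of low genes, the difference was 2.09 (standard error 0.21, 95% confidence interval 1.62 to 2.56, limma adjusted p = 0.00636). Changes of 0.108% of the tested genes in the upward direction and 0.0271% in the downward direction passed the threshold of 0.05 in this comparison, and by size *Osr1* was number 7 of the 16 genes that rose. The median tested gene was itself 0.23 higher in *Gli3*-/- buds on this scale, and relative to it *Osr1* was 1.86 higher. WT replicate 2, with its low *Gli3*, did not set this result, since *Osr1* differed by 2.07 without it (limma adjusted p = 0.0104). Without WT replicate 3 the difference was 2.01 and did not pass (limma adjusted p = 0.0745), and without a filter on low genes the same difference did not pass either (limma adjusted p = 0.137).

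**Figure D1:**
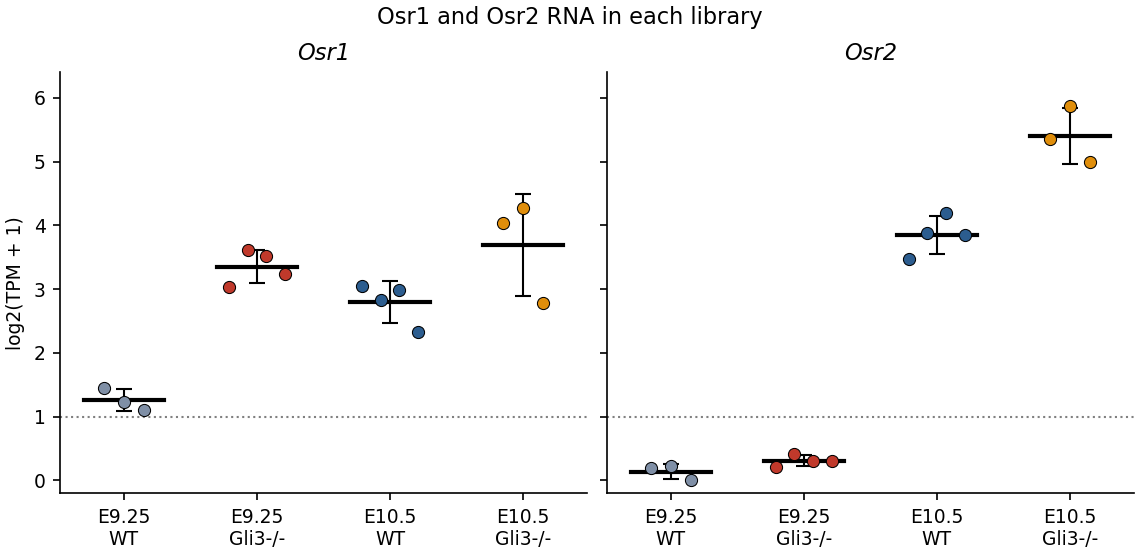
*Osr1* (left) and *Osr2* (right) in each of 14 libraries, as log2(TPM + 1), in the 4 groups; points are libraries in order of replicate number, lines and bars are the mean and SD, and the dotted line marks 1 TPM. *Osr1* separates WT from *Gli3*-/- buds at E9.25, whereas *Osr2* lies below 1 TPM in all 7 E9.25 libraries and separates the genotypes at E10.5.

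In anterior E10.5 WT buds *Osr1* stood at 7.28, 6.12, 6.89 and 4.03 TPM in replicates 1 to 4. In the E10.5 *Gli3*-/- buds it was 15.4, 18.3 and 5.88 TPM. Replicates 1 and 2 of the mutant lay above all WT libraries, while replicate 3 fell inside the WT range, so that the groups overlapped. The mean TPM was 2.17-fold higher in *Gli3*-/- buds, and the log2 difference was 0.90 (standard error 0.33, 95% confidence interval 0.16 to 1.64), which did not pass (limma adjusted p = 0.172, exact permutation p = 0.143). With so wide an interval, this comparison does not show that *Osr1* was alike in both genotypes. Without replicate 3 the difference was 1.36 and passed (limma adjusted p = 0.0121). That replicate is also the library with the blood sum of 33323 TPM, against 11936 and 13015 TPM in the other mutant libraries and 10107 to 13825 TPM in WT. The part of blood in the low *Osr1* value was not tested.

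Between the stages *Osr1* rose in WT and did not pass in *Gli3*-/- buds. In WT it was 4.31-fold higher at E10.5 by mean TPM, a log2 difference of 1.54 (standard error 0.21, limma adjusted p = 0.000836), in a comparison where 38.1% of genes passed upward and 10.6% downward. The median gene was 0.34 higher at E10.5 in WT, and after quantile normalization, which removes that shift, the *Osr1* difference was 1.02 (limma adjusted p = 0.00653). In *Gli3*-/- buds *Osr1* differed by 0.34 (standard error 0.31, 95% confidence interval −0.35 to 1.04, limma adjusted p = 0.466), where 15.8% of genes passed upward and 9.17% downward, and without E10.5 *Gli3*-/- replicate 3 the difference was 0.80 and passed (limma adjusted p = 0.0225). The stage and genotype comparisons share libraries and are not independent of each other. The direct test of whether the genotype difference of *Osr1* changed with stage gave −1.19 (standard error 0.41, 95% confidence interval −2.08 to −0.31), which did not pass (limma adjusted p = 0.149). In order of mean level *Osr1* ran from E9.25 WT (1.41 ± 0.29 TPM, SD, n = 3) through E10.5 WT (6.08 ± 1.45 TPM, SD, n = 4) and E9.25 *Gli3*-/- (9.34 ± 1.84 TPM, SD, n = 4) to E10.5 *Gli3*-/- buds (13.2 ± 6.50 TPM, SD, n = 3), and in that order the ranges of neighboring groups overlapped except for the first pair.

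*Osr2* was barely detected at E9.25 in either genotype. In WT replicates 1 to 3 it was listed at 0.140, 0.166 and 0 TPM. In *Gli3*-/- replicates 1 to 4 it was 0.157, 0.336, 0.236 and 0.239 TPM. The groups overlapped, and the values rest on 0 to 7.03 reads per kilobase, so that a difference of this size could hardly be measured at this depth. *Osr2* stayed below the filter of 1 TPM in 3 libraries and was not in the limma fit at this stage. The log2 difference was 0.17 (exact two-sided permutation p = 0.0857, where 0.0286 is the smallest p that 35 splits of 7 libraries can give).

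At E10.5 *Osr2* was readily measured and rose with loss of *Gli3*. In anterior WT buds it was 10.0499, 13.7, 17.2 and 13.4 TPM in replicates 1 to 4. In *Gli3*-/- buds it was 39.9, 57.4 and 30.8 TPM in replicates 1 to 3. All mutant libraries lay above all WT libraries, with the lowest mutant value 1.79-fold above the highest WT value and a mean TPM 3.14-fold higher. The log2 difference was 1.56 (standard error 0.21, 95% confidence interval 1.08 to 2.04, limma adjusted p = 0.00399), and *Osr2* was number 26 by size among the 288 genes that rose, in a comparison where 1.84% of genes passed upward and 2.93% downward. Replicate 3 of the mutant, the library rich in blood RNA, was again the lowest, and without it the *Osr2* difference was 1.77 (limma adjusted p = 0.00379).

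The stage difference of *Osr2* was far larger than that of *Osr1*. In WT the log2 difference of E10.5 against E9.25 was 3.71 (standard error 0.19, 95% confidence interval 3.27 to 4.14, limma adjusted p = 2.03e-05), number 11 of the 5885 genes that rose. In *Gli3*-/- buds it was 5.09 (standard error 0.20, 95% confidence interval 4.65 to 5.54, limma adjusted p = 1.65e-07), number 9 of the 2437 that rose. By mean TPM these are 133-fold and 176-fold, with E9.25 levels so close to 0 that both folds are imprecise. Every E10.5 library was at least 60.6-fold above every E9.25 library of its genotype. *Osr2* was below 1 TPM in every E9.25 library and passed the filter only through its E10.5 levels. Its rise in the limma fits, with the ranks above, is therefore not a test.

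The genotype difference of *Osr2* was larger at E10.5 than at E9.25 on the log2(TPM + 1) scale, by 1.39 (standard error 0.28, 95% confidence interval 0.78 to 1.99, limma adjusted p = 0.0193), where 2.13% of genes passed in either direction. This call depends on the scale and on other settings. Ratios of mean TPM, which give low values more weight, were 2.38 at the earlier and 3.14 at the later stage, and with a pseudocount of 0.1 in place of 1 the same difference was 0.76 and did not pass (limma adjusted p = 0.352). It also did not pass without a filter on low genes (limma adjusted p = 0.0524) or without E10.5 *Gli3*-/- replicate 2 (1.15, limma adjusted p = 0.0507). In order of mean level *Osr2* ran from E9.25 WT and E9.25 *Gli3*-/-, which overlapped, to E10.5 WT (13.6 ± 2.94 TPM, SD, n = 4) and E10.5 *Gli3*-/- buds (42.7 ± 13.5 TPM, SD, n = 3), which were each set apart from the group below.

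**Figure D2:**
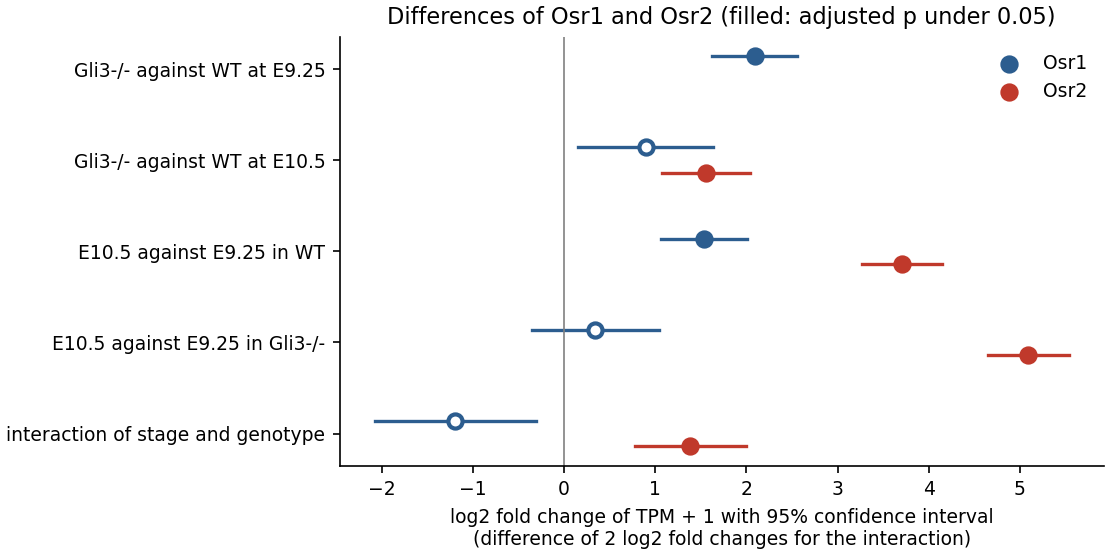
Log2 fold changes of TPM + 1 for *Osr1* (blue) and *Osr2* (red) in 4 comparisons and in the interaction of stage and genotype, with 95% confidence intervals; filled points have a limma adjusted p under 0.05, and *Osr2* was below the filter for *Gli3*-/- against WT at E9.25. *Osr1* passed at E9.25 (2.09) and over stage in WT (1.54), and *Osr2* passed in the other genotype comparison (1.56), over stage in both genotypes (3.71 and 5.09) and in the interaction (1.39). Over stage *Osr2* passed the filter only through its E10.5 levels.

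The balance between the paralogs turned over between the stages. TPM is scaled by length, so that the levels of both genes can be set side by side within a library. *Osr2* made up 7.51%, 10.9% and 0% of the summed TPM of both genes in E9.25 WT replicates 1 to 3, and 2.13% to 2.91% in E9.25 *Gli3*-/- buds. In E10.5 WT replicates 1 to 4 the *Osr2* share was 58.0%, 69.1%, 71.5% and 76.8%. In E10.5 *Gli3*-/- replicates 1 to 3 it was 72.2%, 75.8% and 84.0%. *Osr1* was thus the more abundant paralog in all 7 E9.25 libraries and *Osr2* in all 7 E10.5 libraries.

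As a difference of log2(TPM + 1), *Osr2* minus *Osr1* averaged −1.13 in the E9.25 WT libraries (SD 0.12, n = 3), and for the mutant buds of this stage the mean was −3.04 ± 0.19 (SD, n = 4). It was 1.05 ± 0.46 (SD, n = 4) in E10.5 WT and 1.71 ± 0.46 (SD, n = 3) in E10.5 *Gli3*-/- buds. With loss of *Gli3* this difference changed by −1.92 at E9.25 (exact permutation p = 0.0286, 0.0381 after Benjamini-Hochberg adjustment over 4 comparisons). At E10.5 the shift of 0.66 toward *Osr2* did not pass (exact permutation p = 0.114, also after adjustment). Over stage the balance moved toward *Osr2* by 2.17 in WT and by 4.75 in *Gli3*-/- buds (exact permutation p = 0.0286 each, 0.0381 adjusted). At E9.25 the change by genotype restates that of *Osr1*, since *Osr2* was near 0 in all 7 libraries. The *Osr2* shares of the E9.25 genotypes overlapped (0% to 10.9% in WT, 2.13% to 2.91% in *Gli3*-/- buds), so that a shift between the paralogs is not shown.

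**Figure D3:**
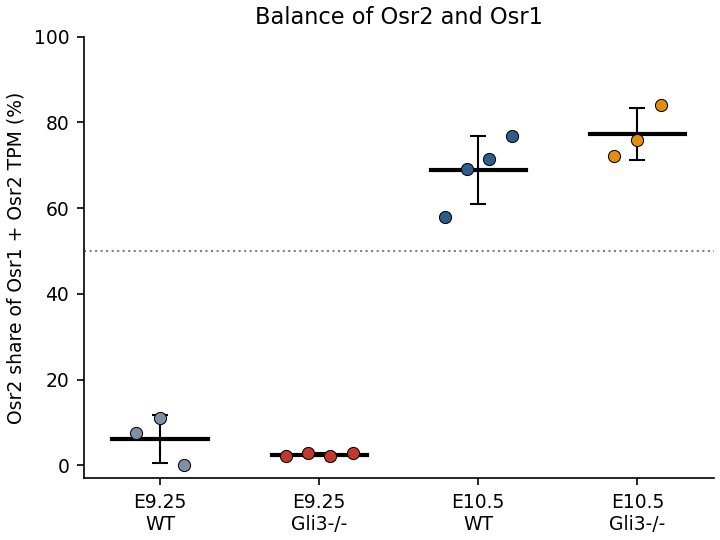
Share of *Osr2* in the summed TPM of *Osr1* and *Osr2* (percent) in each library of the 4 groups; points are libraries, lines and bars are the mean and SD, and the dotted line marks equal levels. The E9.25 libraries lie between 0% and 10.9% and the E10.5 libraries between 58.0% and 84.0%.

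Added together, the TPM of both genes came to 1.51 ± 0.35 (SD, n = 3) for E9.25 WT, 9.58 ± 1.91 (SD, n = 4) for E9.25 *Gli3*-/-, 19.7 ± 3.19 (SD, n = 4) for E10.5 WT and 55.9 ± 19.5 (SD, n = 3) for E10.5 *Gli3*-/- buds. Summed, the *Gli3*-/- libraries lay above the WT libraries at both stages, carried by *Osr1* at E9.25 and mostly by *Osr2* at E10.5. Taken alone, *Osr2* at E9.25 and *Osr1* at E10.5 overlapped between the genotypes. The sum was not tested, and how many other genes separate the libraries in this way was not counted. In E9.25 WT buds *Osr1* was above 5.48% of the genes with a mean of at least 1 TPM, and in E9.25 *Gli3*-/- buds above 37.3%. At E10.5 *Osr2* was above 45.6% of such genes in WT and above 73.5% in *Gli3*-/- buds.

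Flank mesoderm also expresses *Osr1*, and its genes were examined beside it. Of 11 flank and lateral plate mesoderm genes 8 were tested at E9.25, and 3 rose in *Gli3*-/- buds. These were the forkhead factor *Foxf1* (3.68, standard error 0.43, limma adjusted p = 0.0125), the zinc finger factor *Gata4* (2.87, standard error 0.35, limma adjusted p = 0.0128) and the bHLH factor *Tcf21* (1.53, standard error 0.23, limma adjusted p = 0.0380). Over all tested genes 0.108% rose. All 8 had a higher mean in *Gli3*-/- buds, with a median log2 difference of 1.41 against 0.23 over all tested genes. A higher mean was common at E9.25, where 10031 of 14760 tested genes differed by 0.0626 or more in this direction. *Foxf1*, *Tcf21* and *Isl1* fell below 1 TPM in WT (lowest 0.221, 0.694 and 0.817 TPM) and passed the filter only through the *Gli3*-/- libraries. Their direction was thus set in part by the filter. The summed level of the list was 77.7, 35.7 and 32.3 TPM in WT replicates 1 to 3 and 168, 236, 257 and 101 TPM in *Gli3*-/- replicates 1 to 4. Among the 3 WT libraries the order of flank RNA was that of *Osr1*, and among the 4 mutant libraries it was not. Replicate 4 had more *Osr1* than replicate 1 (8.44 against 7.22 TPM) with less flank RNA, and replicate 2 had more *Osr1* than replicate 3 with less flank RNA. In the other pairs of mutant libraries, the library with more flank RNA also had more *Osr1*. Every mutant library was above every WT library in both values. Sums of 4 mesothelium genes were 23.4 to 40.9 TPM in WT and 39.2 to 68.6 TPM in *Gli3*-/- buds, and those of 5 endothelial genes were 42.9 to 69.3 TPM and 84.3 to 131 TPM, with 0 of their tested genes past the threshold in limma. The part of these cells in the E9.25 difference of *Osr1* was not tested.

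At E10.5 the flank list summed to 2.49 to 5.21 TPM in WT and 2.21 to 2.64 TPM in *Gli3*-/- buds, and *Foxf1*, *Gata4* and *Tcf21* were below 1 TPM in all 7 libraries. *Osr1* alone exceeded that sum in 6 of the 7 libraries, the exception being WT replicate 4 (4.03 against 5.21 TPM), and *Osr2* exceeded it in all 7. From E9.25 to E10.5 the flank genes fell where tested, 5 of 5 in WT and 8 of 8 in *Gli3*-/- buds. Over all tested genes 10.6% fell in WT and 9.17% in *Gli3*-/- buds. Of the 11 listed, 8 were below 1 TPM in all E10.5 WT libraries and all 11 in the E10.5 *Gli3*-/- libraries. Such genes could pass the filter only through their E9.25 levels, so that their fall is not a test. *Osr1* rose over stage in WT.

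**Figure D4:**
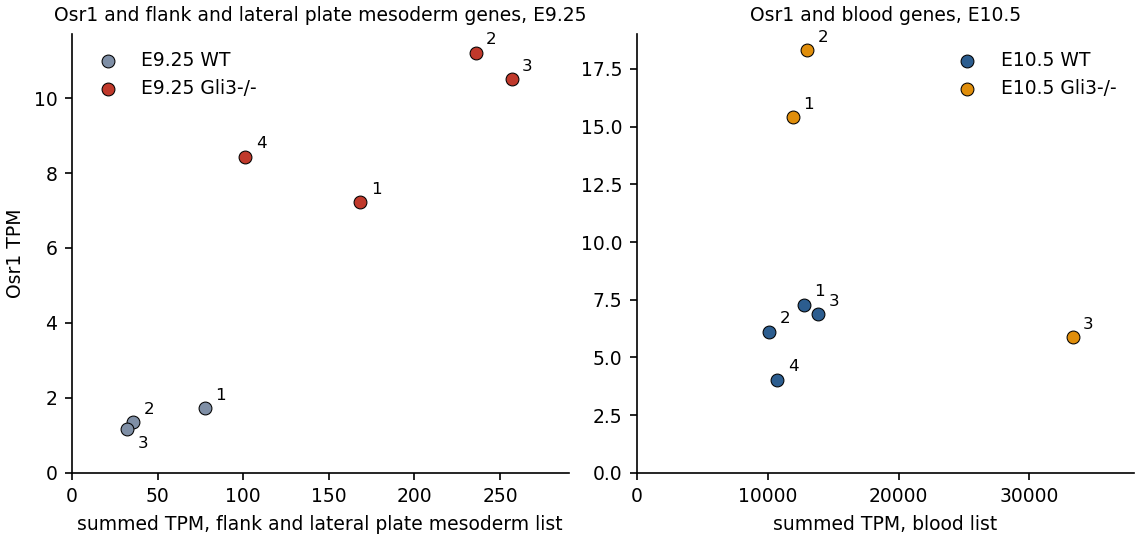
*Osr1* TPM in each library against the summed TPM of flank and lateral plate mesoderm genes at E9.25 (left) and of blood genes at E10.5 (right); numbers are replicates. At E9.25 the *Gli3*-/- libraries lie higher on both axes (101 to 257 against 32.3 to 77.7 TPM for the flank list), and at E10.5 *Gli3*-/- replicate 3 has the most blood RNA and the least *Osr1* of its group.

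Genes known to act with *Osr1* or *Osr2* in other organs were listed to see which of them moved with the pair. With loss of *Gli3*, 0.108% of all tested genes rose and 0.0271% fell at E9.25, and 1.84% rose and 2.93% fell at E10.5. The counts of this and the following lists stand beside these shares. Of 11 partners of *Osr1* in foregut and heart mesoderm, 8 were tested at E9.25 and 3 rose, *Foxf1* and *Gata4* as above and the HH receptor *Ptch1* (2.28, standard error 0.32, limma adjusted p = 0.0309). *Foxf1*, *Gata4*, *Gata6* and *Wnt2*, the last a ligand that acts downstream of *Osr1* in lung specification, are on the flank list as well. At E10.5 only *Ptch1* of 5 tested partners rose (1.58, standard error 0.12, limma adjusted p = 0.000287). *Tbx5*, the forelimb and heart T-box factor, and the ligand *Bmp4* were the most abundant of these partners, and neither passed in a genotype comparison.

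Of 12 genes of the kidney network around *Osr1*, 8 were tested at E9.25 and 1, the forkhead factor *Foxc1*, rose in *Gli3*-/- buds (1.40, standard error 0.21, limma adjusted p = 0.0397). In the E10.5 buds *Hoxd11* (2.11, standard error 0.19, limma adjusted p = 0.000544) and *Sall1* (1.35, standard error 0.19, limma adjusted p = 0.00474) rose, while *Gata3* (−0.74, limma adjusted p = 0.0262) and *Eya1* (−0.56, limma adjusted p = 0.0498) fell, of 7 tested, and *Eya1* did not pass after quantile normalization or with size factors. *Hoxd11* and *Sall1* also pattern the distal limb. Levels of the early kidney genes on this list varied. *Pax2* and *Pax8* were below 1 TPM in all 14 libraries, whereas *Eya1* was at 2.08 TPM or more in every library, and *Six2* stood at 2.24 to 3.94 TPM and *Gdnf* at 0.939 to 2.66 TPM in the E10.5 libraries. *Lhx1* was at 1.05 to 2.70 TPM in E9.25 WT and 4.31 to 8.36 TPM in E9.25 *Gli3*-/- buds, *Wt1* at 1.33 to 3.19 TPM and 4.72 to 8.48 TPM, and both were below 0.1 TPM at E10.5.

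The palate and tooth partners of *Osr2* moved in both directions at E10.5, where 7 of 10 were tested. *Shox2* (0.79, standard error 0.11, limma adjusted p = 0.00456), a homeobox gene of palate and proximal limb, and *Fgf10* (1.05, standard error 0.10, limma adjusted p = 0.000643), the mesenchymal ligand of limb outgrowth, rose with *Osr2*. The homeobox genes *Msx2* (−2.25, standard error 0.13, limma adjusted p = 7.36e-05) and *Msx1* (−0.86, standard error 0.11, limma adjusted p = 0.00270), the latter an antagonist of *Osr2* in tooth mesenchyme, fell, as did the Wnt inhibitor *Dkk2* (−0.82, limma adjusted p = 0.0101). At E9.25, 0 of 7 tested partners passed in limma, and *Shox2* fell when the libraries were rescaled by quantile normalization or size factors. *Pax9* and *Tbx22*, palate genes upstream of or beside *Osr2*, were below 1 TPM in every library.

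Joint interzone genes, among which both *Osr* genes are placed in later limbs, fell with loss of *Gli3* at E10.5 where they passed. Of 5 tested, the ligands *Gdf6* (−2.04, standard error 0.15, limma adjusted p = 0.000287), *Wnt4* (−1.12, standard error 0.13, limma adjusted p = 0.00196) and *Gdf5* (−0.71, standard error 0.17, limma adjusted p = 0.0434) fell, opposite to *Osr2*, and *Gdf5* did not pass after quantile normalization. Over all tested genes 2.93% fell. The ETS factor *Erg* was the most abundant of the list and did not pass in a genotype comparison. *Gdf5* stood at 1.28 to 2.02 TPM in E10.5 WT and 0.338 to 0.716 TPM in *Gli3*-/- buds, low levels beside those of *Osr2*. *Gdf6* stood at 3.76 to 4.89 TPM in E10.5 WT and 0.0672 to 0.425 TPM in *Gli3*-/- buds. Both passed the filter only through the WT libraries, so that the direction of their fall was set in part by the filter.

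Of 12 genes of irregular and muscle connective tissue, the cell type that *Osr1* marks in later limbs, 11 were tested in each genotype comparison. At E9.25 all 11 had a higher mean in *Gli3*-/- buds (median 0.66 against 0.23 over all genes), 10 of 11 after quantile normalization, and 0 passed. Without that normalization 10031 of 14760 tested genes also differed by 0.0626 or more in this direction. At E10.5 the small proteoglycan gene *Lum* rose (0.99, standard error 0.16, limma adjusted p = 0.00998) and the collagen gene *Col3a1* fell (−0.52, standard error 0.12, limma adjusted p = 0.0381). Over stage 7 of 11 rose in WT, where 38.1% of all genes did, among them *Pdgfra*, *Tcf7l2* and *Cxcl12*, and *Postn* fell. The list holds *Tcf4*, an E protein gene whose name is also an alias of *Tcf7l2*, and without it 6 of 10 rose.

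HH response genes were set beside *Osr2*, since GLI3 represses HH targets in the anterior limb. Of 5, all tested at E10.5, 3 rose in *Gli3*-/- buds, namely the receptor *Ptch1* as above, the bHLH factor *Hand2* (1.90, limma adjusted p = 0.000544) and the BMP antagonist *Grem1* (1.19, limma adjusted p = 0.00626). Over all tested genes 1.84% rose. The list was shortened after its values were known, so that its count describes these 5 genes alone. The *Osr2* difference of 1.56 lies within the range of these genes. Several of them are genes that the study names for these libraries, so that their direction is not independent evidence. The same holds for *Osr1* and *Foxf1* at E9.25, which the study names among its upregulated genes. Of the HH response genes 3 were tested at E9.25, and *Ptch1* rose.

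**Figure D5:**
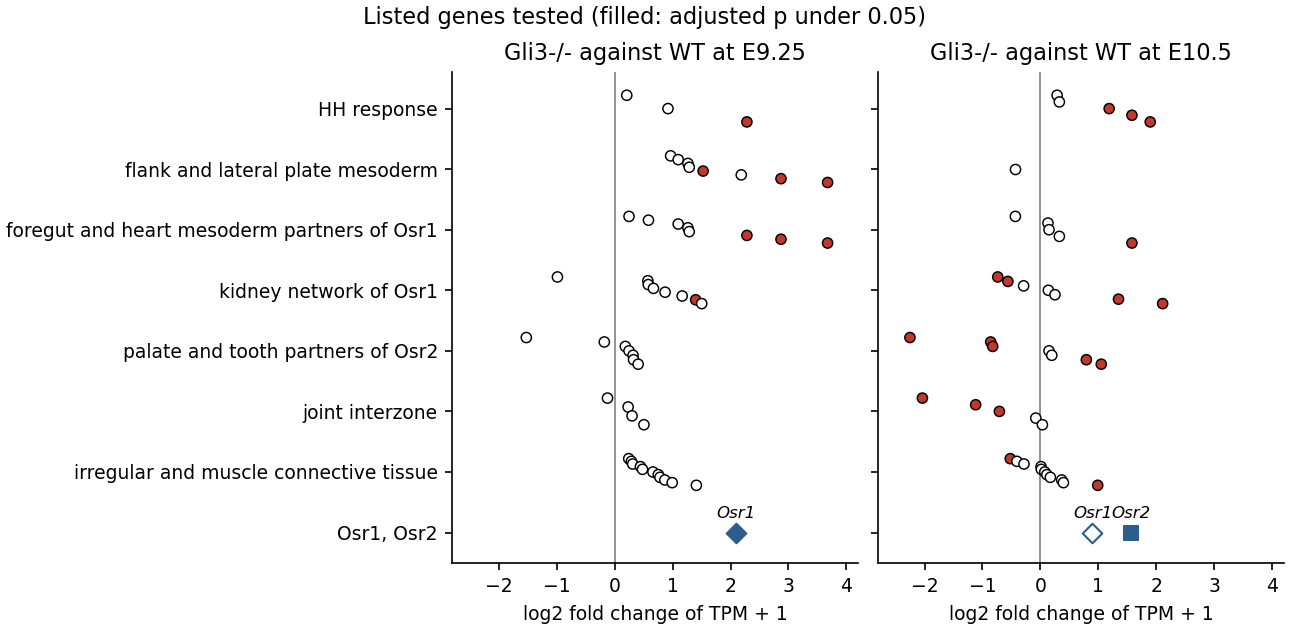
Log2 fold changes of TPM + 1 for *Gli3*-/- against WT at E9.25 (left) and E10.5 (right); each circle is a tested gene of 1 of 7 lists, filled where the limma adjusted p is under 0.05, with *Osr1* (diamond) and *Osr2* (square) at the bottom. At E9.25 the genes that passed lie to the right of 0 with *Osr1* (2.09), and at E10.5 genes passed on both sides of 0.

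The remaining lists describe the tissue around these genes. Of 10 limb mesenchyme genes 0 passed at E9.25, and at E10.5 *Fgf10* and *Shox2* rose with *Osr2* while *Prrx1*, *Prrx2*, *Twist1*, *Meis1*, *Meis2* and *Msx1* fell. Blood and endothelium genes gave 0 calls of 5 in either genotype comparison. At E10.5 the somite list (16.2 to 75.2 TPM in sum over all libraries) had 1 of 5 lower, *Pax1*, the surface ectoderm list (123 to 263 TPM in sum) had 1 of 5 higher, the ridge ligand *Fgf8*, and of the mesothelium list 1 was tested and fell, *Krt19*. *Pax1* was at 8.27 to 34.6 TPM in E10.5 WT and 0 to 0.172 TPM in E10.5 *Gli3*-/- buds. It passed the filter only through the WT libraries, so that its direction was set in part by the filter.

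Across the 14 libraries, the genes whose log2(TPM + 1) was most like that of *Osr1*, of 16368 genes, were *Zfyve21* (Pearson's r = 0.910), *Rnf19b* (0.892), *Sh2b2* (0.888), *Tubb2b* (0.887) and *Gm3650* (0.887). *Gm3650* is listed under a name given to predicted genes and *Tubb2b* is a tubulin gene. None of these 5 passed in a genotype comparison. *Zfyve21*, the closest, ran from 10.6 to 14.2 TPM in E9.25 WT and from 17.3 to 20.9 TPM in E9.25 *Gli3*-/- buds, a far smaller span than that of *Osr1*.

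The genes most like *Osr2* were *Cbln1* (Pearson's r = 0.989), which encodes a secreted C1q-related protein, the apoptosis gene *Pmaip1* (0.988), *Enpp3* (0.986), *Arhgap24* (0.986), which encodes a GTPase-activating protein, and *Fbxo41* (0.985). Of these, *Cbln1* (1.17, standard error 0.13, limma adjusted p = 0.00161), *Pmaip1* (1.21, standard error 0.24, limma adjusted p = 0.0233), *Arhgap24* (0.52, limma adjusted p = 0.0341) and *Enpp3* (0.48, limma adjusted p = 0.0354) also rose with loss of *Gli3* at E10.5. All 5 rose over stage in both genotypes. They were picked for following *Osr2* across these same libraries, so that rises like its own were built into the choice. Neither the genotype calls nor the stage calls of these genes are therefore a test. These r values describe libraries that fall into 4 groups, 2 of them near 0 for *Osr2*, and therefore mostly reflect the order of the groups.

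The genes around each locus were examined beside it. Within 500 kb of *Osr1* 4 genes are listed, of which *1700022H16Rik*, *Gm22845* and *Gm23979* were at 0 in all libraries and *Gm7099* was at 4.86 to 10.2 TPM and passed in no comparison. Within 500 kb of *Osr2* 6 genes are listed. The kinase gene *Stk3* (18.6 to 38.3 TPM) and *Vps13b* (1.14 to 8.49 TPM) were expressed in all libraries and passed in neither genotype comparison. At E10.5 *Stk3* stood at 24.6 to 30.8 TPM in WT and 30.9 to 38.3 TPM in *Gli3*-/- buds, without overlap, a log2 difference of 0.29 (limma adjusted p = 0.156) beside 1.56 for *Osr2*. Over stage both rose in *Gli3*-/- buds, by 0.65 (limma adjusted p = 0.00294) and 0.59 (limma adjusted p = 0.0127), against 5.09 for *Osr2*. In WT the stage differences were 0.34 for *Stk3* (limma adjusted p = 0.0747) and 0.92 for *Vps13b* (limma adjusted p = 0.0517), which did not pass, although the *Vps13b* libraries did not overlap (1.14 to 5.05 TPM at E9.25 and 5.87 to 8.49 TPM at E10.5). The remaining 4, *Kcns2*, *Gm24771*, *Mir599* and *Mir875*, did not exceed 1.86 TPM in any library.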

How the data were processed

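RNA-seq libraries of mouse forelimb buds (n = 14) were grouped by the sample labels. The authors aligned single reads of 100 bases with HISAT2, and tested genes on counts. For each library a deposited table holds each gene ID's coverage (mean read depth per base), FPKM and TPM, but no counts, so that a count test could not be run. The tool that made these values is not given in the sources used here, and mm10 is named in the submitters' processing notes. Library sizes were estimated by dividing coverage by FPKM and taking the ratio that most genes share.

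The TPM of gene IDs listed on several lines was summed. Genes with at least 1 TPM in at least 3 of the libraries compared were tested on log2(TPM + 1) with limma 3.58.1 (trend, R 4.3.3), two-sided, with Benjamini-Hochberg adjustment over all tested genes and a threshold of 0.05. Exact permutation tests used all 35 splits of 7 libraries. The procedure was tested on simulated data. Replicates are pools from several embryos, and p-values measure the spread between pools. Other steps used Python 3.11.15, pandas 2.3.3, NumPy 2.4.6 and matplotlib 3.10.9.

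The members and the gene lists were chosen with earlier results of these data known. Named genes are *Osr1* and *Osr2*, *Gli3*, listed genes that pass a test or are among the 3 most abundant of their list, those of a list used to check a cell type, the 5 genes most like each member, and genes within 500 kb. Of the lists, 14 were made, and those of somite, surface ectoderm and the cell types above served to check the tissue. A further HH response gene was taken off its list after the values were known and is not reported here. Chosen after seeing the data, the connective tissue list was also counted without *Tcf4*. As alternatives, the pseudocount was set to 0.1, the filter was dropped or raised to 5 TPM, and the fits were repeated with quantile normalization, median-of-ratios size factors, 1 model of all 14 libraries, replicate blocks and each library left out.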

Additional observations from a re-analysis of the deposited data

Results flagged for a closer look

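The genotype difference of *Osr2* differed between the stages by 1.39 on the log2(TPM + 1) scale (limma interaction term, adjusted p = 0.0193), which calls for a closer look because *Osr2* was below 1 TPM in all E9.25 libraries. It was not past the threshold with a pseudocount of 0.1 (0.76, adjusted p = 0.352), without a filter on low genes (adjusted p = 0.0524) or without E10.5 *Gli3*-/- replicate 2 (1.15, adjusted p = 0.0507). In all, the call was lost in 5 alternatives and kept in 16. The direction was kept, and all 3 E10.5 *Gli3*-/- libraries lay above all 4 E10.5 WT libraries, whereas the E9.25 groups overlapped.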

How the results depend on the processing

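Of 186 values of *Osr1*, *Osr2* and their balance under alternatives, 0 changed direction. Of the 151 whose test could pass the threshold, 140 stayed on the same side of it, 8 lost a call and 3 gained one, and the others had no test or an exact test of too few libraries. *Osr1* at E9.25 (2.09) lost its call without a filter (2.09, limma adjusted p = 0.137), and with each library left out ranged from 2.00 to 2.19, not passing without WT replicate 3 (adjusted p = 0.0745). For libraries with the same number in the titles, deviations from the group means had r of −0.20 to −0.16 at E9.25 and −0.18 to 0.15 at E10.5. At these stages 0 of 6 and 2 of 6 libraries correlated best with their own number. With 3 pairs per comparison, these values cannot tell whether the numbers mark anything shared. With the title numbers as a replicate block, *Osr2* at E10.5 (1.56, adjusted p = 0.0630) and its interaction (1.39, adjusted p = 0.0708) did not pass. With the numbers that the deposited tables carry (r of 0.05 to 0.32 at E10.5, 4 of 6 best with their own), *Osr1* at E10.5 passed (0.98, adjusted p = 0.0476) and the *Osr2* interaction did not (1.30, adjusted p = 0.0597). That interaction also did not pass without a filter (1.39, adjusted p = 0.0524) or with a pseudocount of 0.1 (0.76, adjusted p = 0.352), and with libraries left out it was 1.15 to 1.59, not passing without E10.5 *Gli3*-/- replicate 2 (adjusted p = 0.0507). With libraries left out *Osr1* at E10.5 ranged from 0.61 to 1.36 and over stage in *Gli3*-/- buds from 0.057 to 0.80, in both cases highest without E10.5 *Gli3*-/- replicate 3. The cause was not tested.

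Counts of genes that passed were less stable. At E9.25 the count of 20 ranged from 0 without a filter to 1185 when all 14 libraries shared the spread, at E10.5 the count of 747 from 164 with the title block to 814, over stage in WT 7520 against 4699 with that block, over stage in *Gli3*-/- buds 3853 against 2513 without E10.5 *Gli3*-/- replicate 2, and for the interaction 348 against 138 with the title block and 1430 without E9.25 WT replicate 1. Unadjusted p-values under 0.05 numbered 3247 at E9.25. After quantile normalization 17 genes rose and 13 fell at E9.25 (16 and 4 as deposited), 2668 and 3050 over stage in WT (5885 and 1635), 2342 and 2186 over stage in *Gli3*-/- buds (2437 and 1416) and 164 and 181 in the interaction (78 and 270). Median-of-ratios size factors gave like splits. Depth limits what can be measured of *Osr2* at E9.25.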
